A study of Mus musculus with 2 samples.

Results

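Transcripts of 35 genes that fold proteins in the endoplasmic reticulum (ER), clear misfolded ones from it or report stress in it were followed in single cells of mouse lung fibroblastic stroma. The genes were listed by name, and all 35 were among the 21014 genes of the deposited tables. They were sorted by known role into folding (15 genes), degradation (8), the integrated stress response (7), the IRE1 and ATF6 sensors with Xbp1 (3) and entry of new proteins into the ER (2). In the pooled fibroblast classes 31 of the 35 were measured, meaning at least 50 effective counts over both libraries (counts divided by a factor for their excess variance), as were 13422 genes in all. Derl3, Trib3, Chac1 and Asns fell under that minimum.

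The cells came from the lung of C57Bl/6J mice, with 1 library after 16 weeks of high fat diet (HFD) and 1 library after 16 weeks of normal chow (NC). Both groups share strain, tissue, labelled cell type and a 10x Genomics 3′ single-cell kit. No source used here gives the number, age or sex of the animals or how cells were released from tissue. A single library per diet leaves nothing to estimate replicate spread from, so no difference was tested. All intervals are 95% intervals for counting error alone, and a gene is called lower or higher by size when its HFD over NC ratio is at least 1.5-fold from 1. Cells passed if 500 or more genes were detected and mitochondrial counts made up no more than 10%. These were 6089 of 6971 cells in HFD and 8140 of 9015 in NC, with median depths of 10045 and 7524 counts. Only 17 cell barcodes occurred in both libraries. Cell classes are those of the deposited annotation: Asc1 fibroblasts (3092 HFD and 3999 NC cells), Gas6 fibroblasts (1095 and 2002), Pi16 fibroblasts (796 and 1222), myofibroblasts (510 and 667) and a class labelled pericytes (596 and 250). The first 4 were pooled as fibroblasts, 5493 HFD and 7890 NC cells. In these, summed fibroblast markers (Col1a1, Col1a2, Col3a1, Pdgfra, Dcn) were at 4236 CPM (counts scaled to a common total) in HFD and 5002 CPM in NC, with 0 of 5 markers at 0.

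Proteins that are secreted or placed in membranes enter the ER unfolded, and fibroblasts pass large amounts of collagen through it. The chaperone Hspa5 (BiP, GRP78) holds unfolded chains, the protein disulfide isomerases form and shuffle disulfide bonds, and the lectins Calr and Canx hold glycoproteins until they are folded. When unfolded chains build up, 3 sensors of the ER membrane respond. ATF6 is cut to release a transcription factor, IRE1 (Ern1) splices the mRNA of Xbp1, and PERK (Eif2ak3) phosphorylates eIF2 alpha, which slows translation and favours that of Atf4. ATF6 and spliced XBP1 raise chaperone and degradation genes through the ER stress element, and Atf4 raises amino acid supply and stress genes through other sites. The tables count genes, so splicing of Xbp1, cleavage of ATF6 and phosphorylation were not analysed here.

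The ER stress element is CCAAT and CCACG separated by 9 bases. It is shown first because it is a feature of the gene sequences that owes nothing to the expression values. RefSeq promoter windows, 250 bases before to 50 bases after each start (build GRCm38.p6, an older build than the mm39 of the expression tables), were at hand for 31 of the 35 genes and not for Manf, Hyou1, Derl1 and Atf6. On either strand, the element was found in 9 of these 31 genes (29.0%), against 37 of all 27025 genes with a window (0.137%). Of the folding genes 7 of 13 held it (Hspa5, Hsp90b1, Calr, Canx, Pdia6, Dnajc3 and Creld2), and of the degradation genes 2 of 7 (Syvn1 and Derl3). None of the 7 integrated stress genes held it. The 250 bases before the start of Hspa5, the gene with the lowest ratio among the 31 measured, are printed with the element in capitals. They lie at chr2:34771840-34772089 on the plus strand, upstream of the first exon.

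Hspa5 upstream: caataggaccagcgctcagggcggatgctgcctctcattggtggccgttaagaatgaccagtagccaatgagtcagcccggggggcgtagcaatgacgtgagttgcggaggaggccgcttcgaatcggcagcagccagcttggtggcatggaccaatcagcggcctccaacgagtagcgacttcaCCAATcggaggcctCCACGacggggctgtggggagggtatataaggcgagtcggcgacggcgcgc

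The elements themselves are set side by side to show that the 2 outer blocks, in capitals, are shared and the 9 bases between them are not. Each is read 5′ to 3′ on the strand that carries it. Only exact matches were sought.
Hspa5: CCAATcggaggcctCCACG
Hsp90b1, first site: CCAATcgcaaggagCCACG
Hsp90b1, second site: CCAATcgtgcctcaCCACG
Calr: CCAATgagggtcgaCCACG
Canx: CCAATcaccacgctCCACG
Pdia6: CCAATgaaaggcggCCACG
Dnajc3: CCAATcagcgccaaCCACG
Creld2: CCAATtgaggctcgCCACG
Syvn1: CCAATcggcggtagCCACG
Derl3: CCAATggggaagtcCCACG
The site of Hspa5 begins 65 bases before the start, that of Syvn1 44 bases and the first site of Hsp90b1 212 bases before it. A second form of the element, ATTGG and CCACG separated by 1 base, occurred in Herpud1 (ATTGGGCCACG, 52 bases before the start) and in Dnajb11 (ATTGGCCCACG, just after it), against 12 of all 27025 genes (0.0444%). The block CCACG alone was in 25 of the 31 genes (80.6%), but also in 35.5% of all genes. TGACGTGG, a site of XBP1 and ATF6, was in 0 of the 31 windows, against 0.714% of all. Amino acid response elements (TGATGCAAT, TGATGAAAC, TGATGCAAA or TTGCATCA) were in Chac1, Asns and Herpud1, 9.68% of the 31 against 1.26% of all. A match is a description of these letters and not of binding in these cells.

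All 15 folding genes were lower in HFD in the pooled fibroblasts. There 8 of the 31 measured genes were lower by size and 0 higher, and all 8 were folding genes (Hspa5, Manf, Sdf2l1, Creld2, Hyou1, Dnajb9, Calr and Pdia6). Of all 13422 genes measured there, 4.75% were lower by size and 5.45% higher. Among the 28 members with at least 500 effective counts 7 were lower by size, where 2.99% of all such genes were. The median log2 ratio was −0.39 over the 31 genes and 0.02 over all genes. Summed over the 15 folding genes, the level was 2374 CPM in HFD and 4079 CPM in NC, a ratio of 0.582 (0.574 to 0.590). The interval of each of the 15 lay below 1, and their median log2 ratio was −0.66. The share of all genes with an interval below 1 was not counted.

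Hspa5, the ER member of the HSP70 family, was at 518 CPM in HFD and 1376 CPM in NC, a ratio of 0.376 (0.366 to 0.387). Its ratio ranked 49th from the lowest of 13422. Hspa5 alone made up 33.7% of the counts of the 15 folding genes in NC and 21.8% in HFD (counts, not set per length), and accounted for 50.4% of the gap between the summed levels. Manf, which binds HSPA5 and can be secreted, was at 107 CPM in HFD against 278 CPM in NC, a ratio of 0.384 (0.360 to 0.409). Sdf2l1, a partner of ER J-domain proteins, was at 12.98 against 33.5 CPM (0.387, 0.322 to 0.464). Hyou1, the nucleotide exchange factor of HSPA5, was at 9.45 against 20.5 CPM (0.461, 0.369 to 0.573). Creld2, a secreted factor induced by ER stress, was at 12.3 against 29.0 CPM (0.424, 0.350 to 0.511). These 5 genes had the lowest ratios of the 31.

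The J-domain proteins, which hand clients to HSPA5, were lower to a smaller extent. Dnajb9 (ERdj4) was at 77.9 CPM in HFD and 136 CPM in NC (ratio 0.574, 0.531 to 0.619). Dnajc3 (p58IPK) was at 136 against 199 CPM (0.685, 0.645 to 0.727), just short of 1.5-fold. Dnajb11 (ERdj3) was at 37.6 against 52.8 CPM (0.711, 0.633 to 0.798). Hsp90b1 (GRP94), the ER member of the HSP90 family, was at 474 against 623 CPM (0.761, 0.736 to 0.786). The intervals of this ratio and that of Hspa5 do not overlap, although the windows of both genes hold the ER stress element.

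Of the lectins, Calr (calreticulin, soluble) was at 217 CPM in HFD and 342 CPM in NC, a ratio of 0.633 (0.604 to 0.664), and Canx (calnexin, in the membrane) at 125 against 147 CPM (0.852, 0.798 to 0.909). The intervals of the 2 ratios are apart. The disulfide isomerases ranged likewise. Pdia6 was at 144 against 228 CPM (0.634, 0.599 to 0.672), Pdia4 at 71.4 against 94.3 CPM (0.757, 0.695 to 0.824), and Pdia3, the partner of both lectins, at 271 against 334 CPM (0.812, 0.777 to 0.848). P4hb, which is also a subunit of the enzyme that hydroxylates collagen prolines, was at 161 against 187 CPM (0.861, 0.813 to 0.912), the folding gene nearest to 1. Pdia6 was the folding gene just inside the threshold, and Dnajc3 the one just outside.

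The degradation genes were lower as well, but none by size. ER-associated degradation passes misfolded proteins through a membrane complex to the proteasome. Herpud1, which organises that complex, was at 138 CPM in HFD and 206 CPM in NC (ratio 0.672, 0.633 to 0.713). Syvn1 (HRD1), its ubiquitin ligase, was at 16.5 against 24.4 CPM (0.675, 0.566 to 0.802). Both lay just short of 1.5-fold and both carry a form of the ER stress element. Edem1, which trims mannose from misfolded glycoproteins, was at 21.7 against 30.4 CPM (0.713, 0.611 to 0.831). Selenos, a selenoprotein that recruits the ATPase VCP, was at 132 against 170.1 CPM (0.775, 0.728 to 0.825), and Derl1 at 72.3 against 84.6 CPM (0.855, 0.784 to 0.931). The intervals of Derl2 (0.929, 0.828 to 1.04) and of Sel1l, the partner of Syvn1 (0.941, 0.846 to 1.05), include 1. The median log2 ratio of the 7 measured degradation genes was −0.37. Derl3 had 37 counts in HFD and 66 in NC.

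Among the sensors, the transcription factor Xbp1 was the lowest. It was at 164 CPM in HFD and 235 CPM in NC, a ratio of 0.698 (0.660 to 0.737). Ern1, which encodes the kinase and endonuclease IRE1, was at 13.9 against 16.0 CPM (0.868, 0.710 to 1.06). Atf6 was at 77.8 and 77.2 CPM (1.01, 0.926 to 1.10). The intervals of Ern1 and Atf6 include 1, so in the pool of 4 fibroblast classes a difference in the mRNA of either was not detectable at this depth. With the class labelled pericytes added, Ern1 was at 0.809 (0.6674 to 0.979) and Atf6 at 0.916 (0.842 to 0.995). That class holds 596 HFD and 250 NC cells, so this pool also differs between diets in its mix of classes. The part of the mix in these ratios was not tested.

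The integrated stress genes had a median log2 ratio of −0.17 over the 4 measured. Atf4, the transcription factor of this response, was at 312 CPM in HFD and 382 CPM in NC (ratio 0.817, 0.784 to 0.851). Ddit3 (CHOP), a transcription factor downstream of it, was at 90.6 against 106 CPM (0.856, 0.793 to 0.924). A second identifier of the tables shares the symbol Ddit3 and overlaps the gene. It held 59 HFD and 76 NC counts, so reads could be split between them and the value of Ddit3 is uncertain. Ppp1r15a (GADD34), the regulatory subunit that restores eIF2 alpha, was at 680 against 638 CPM (1.07, 1.03 to 1.10), and was the 1 gene of the 31 whose interval lay above 1. With all 5 classes pooled its log2 ratio was −0.02, on the other side of 0. Eif2ak3 (PERK) was at 9.24 against 9.95 CPM (0.929, 0.723 to 1.19). The Atf4 targets Trib3 (38 HFD and 89 NC counts), Asns (31 and 61) and Chac1 (1 and 1) were too few to compare. Of the translocation genes, Sec61b, a subunit of the channel, was at 255 against 283 CPM (0.904, 0.863 to 0.946), and Ssr1, of the associated TRAP complex, at 116 against 118 CPM (0.983, 0.917 to 1.05).

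Hspa5 and Manf were lower by size in each of the 5 classes. Hspa5 was at 497 against 1242 CPM in Asc1 fibroblasts, a ratio of 0.400 (0.383 to 0.418). In Gas6 fibroblasts it was at 582 against 1544 CPM, in Pi16 fibroblasts at 490.3 against 1404 CPM (0.349, 0.324 to 0.377) and in myofibroblasts at 383 against 965 CPM (0.397, 0.345 to 0.455). In the class labelled pericytes it was at 299 against 585 CPM (0.511, 0.460 to 0.567), the ratio nearest to 1. The highest HFD class, Gas6 at 582 CPM, lay below the lowest NC class, pericytes at 585 CPM, although the intervals of those 2 classes overlap. Manf showed the same separation, with its highest HFD class at 120 CPM (Pi16) and its lowest NC class at 153 CPM (pericytes). Of the 24 members measured in all 5 classes these were the 2 whose classes did not overlap between diets, where 1.25% of 3835 genes had every HFD class below every NC class. Classes of 1 library are not replicates of a diet.

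For Hspa5, Calr, Xbp1 and Ppp1r15a the order of the classes was much the same in both diets. For some other members the highest class differed. Derl1 was highest in Asc1 fibroblasts in NC and in Pi16 in HFD, and Sec61b in Pi16 in NC and in Gas6 in HFD. In NC, Hspa5 was highest in Gas6 fibroblasts, then Pi16, Asc1, myofibroblasts and pericytes, and the intervals of neighbours did not overlap. In HFD the order was Gas6, Asc1, Pi16, myofibroblasts and pericytes, and Asc1 (479 to 516 CPM) and Pi16 (458 to 524 CPM) could not be ranked. Calr was highest in Pi16 fibroblasts in both diets, at 328 CPM in HFD and 437 CPM in NC. Xbp1 ran from 193 CPM in Asc1 fibroblasts to 58.2 CPM in pericytes in HFD, and from 254 to 84.6 CPM in NC. Ppp1r15a was also highest in Asc1 fibroblasts and lowest in pericytes, at 810 and 285 CPM in HFD and at 794 and 289 CPM in NC, with the diets close to each other in every class. Depth differed between classes as well, in NC from a median of 4816 counts in myofibroblasts to 15460 in pericytes, and its part in the order was not tested.

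**Figure D1:**
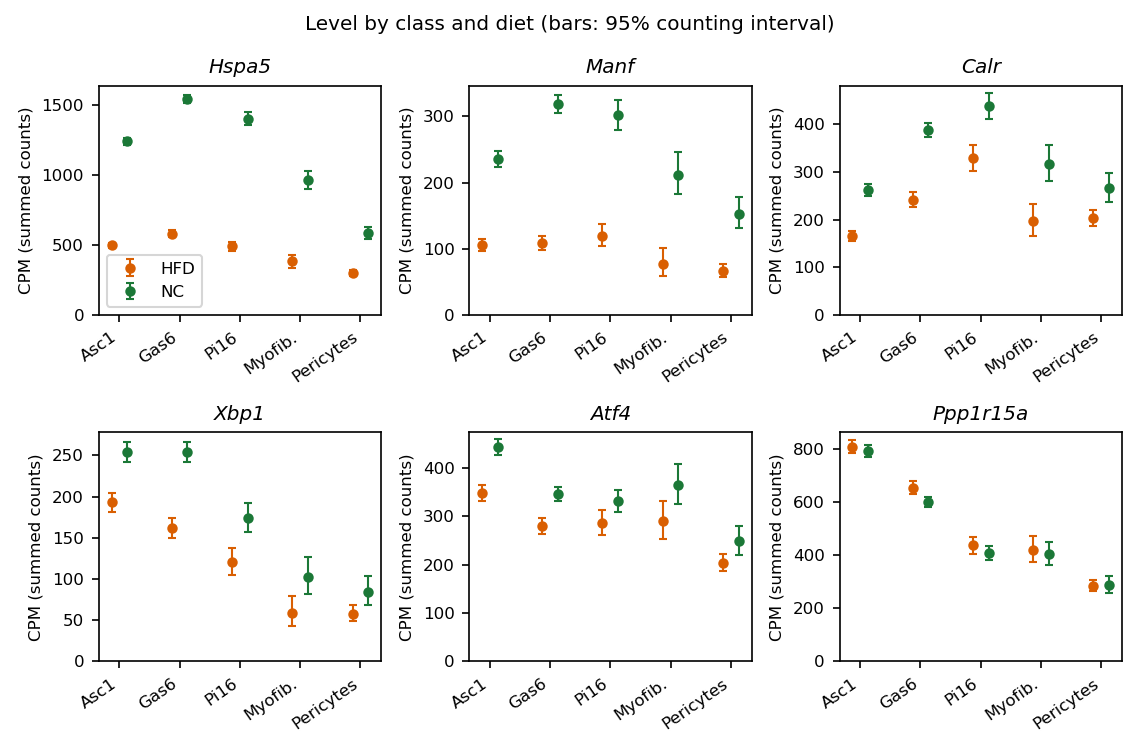
Level of 6 genes in CPM of summed counts (vertical axes from 0) in the 5 classes, HFD in orange and NC in green, with 95% counting intervals. Within each class Hspa5, Manf, Calr, Xbp1 and Atf4 are lower in HFD, and Ppp1r15a lies near the same level in both diets.

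In Asc1 fibroblasts 10 of 31 measured members were lower by size, where 5.46% of all measured genes were. In Gas6 fibroblasts it was 13 of 31, where 5.91% of all genes were, and the 13 included Herpud1, Syvn1, Xbp1, Dnajb11 and Dnajc3. In Pi16 fibroblasts it was 6 of 30, against 5.88% of all genes, in myofibroblasts 6 of 24, against 7.94%, and in pericytes 6 of 25, against 6.77%. With the 5 classes pooled, whose mix differs between the diets, it was 13 of 31, against 5.39% of all genes. No member was higher by size in any of the 5 classes or in their pool, where 7.58% of all genes were. In the single classes, in the order just given, 4.88%, 6.08%, 5.7%, 7.62% and 11.4% of all measured genes were higher. Of the 24 members measured in all 5 classes 16 were below a ratio of 1 in each, and none was above 1 in each. The share of all genes with these patterns was not counted, so no result about the members follows from them. Canx, a folding gene, was at 1.06 (0.866 to 1.30) in pericytes. The median log2 ratio of the folding genes was −0.66 in Asc1, −0.68 in Gas6 and −0.51 in Pi16, over 15 genes each. It was −0.39 in myofibroblasts and −0.55 in pericytes, over 12 genes each. Sdf2l1, Creld2 and Hyou1, with some of the lowest ratios in the pool, were not measured in these last classes. The medians are therefore not over the same genes. Creld2 ranged most among the folding genes, from 0.273 (0.185 to 0.393) in Gas6 to 0.596 (0.393 to 0.889) in Pi16 fibroblasts.

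The degradation genes lay at different distances from a ratio of 1 in different classes. Their median log2 ratio was −0.35 in Asc1 fibroblasts, −0.27 in Gas6 and −0.20 in Pi16, over 7 genes each. It was −0.45 over 5 genes in myofibroblasts and −0.01 over 6 in pericytes, so these medians are not over the same genes. Herpud1 had a ratio of 0.613 (0.551 to 0.682) in Gas6 fibroblasts and of 0.999 (0.787 to 1.28) in pericytes, at 88.6 and 88.7 CPM. Selenos was at 0.735 and 0.997 in the same classes. Derl2 was called lower in myofibroblasts and in no other of the 5 classes, at 25.1 against 46.4 CPM, with a wide interval (0.540, 0.292 to 0.964). Ddit3 was at 1.22 in pericytes and Eif2ak3 at 1.33 in Pi16 fibroblasts, both with intervals that include 1. Syvn1 was at 0.664 in Asc1, 0.548 in Gas6 and 0.868 in Pi16 fibroblasts and was not measured in the other 2 classes. These differences between classes were not tested.

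The remaining roles are given by class as well. Manf was at 106 against 235 CPM in Asc1 fibroblasts, 108 against 319 CPM in Gas6, 120 against 302 CPM in Pi16 and 77.7 against 212 CPM in myofibroblasts. Sdf2l1 had ratios of 0.440 in Asc1, 0.369 in Gas6 and 0.462 in Pi16 fibroblasts, lower by size in each class where it was measured. Xbp1 was below 1 in all 5 classes, from 0.578 (0.392 to 0.842) in myofibroblasts to 0.760 (0.702 to 0.821) in Asc1 fibroblasts. Ern1 was at 0.736 (0.549 to 0.983) in Asc1 and at 1.14 (0.819 to 1.57) in Gas6 fibroblasts. Atf6 ran from 0.724 in pericytes to 1.12 in myofibroblasts, with intervals that include 1 in each class. Atf4 lay between 0.785 in Asc1 and 0.867 in Pi16 fibroblasts, with each of its 5 intervals below 1. Ppp1r15a lay between 0.987 in pericytes and 1.09 (1.04 to 1.15) in Gas6 fibroblasts, the class whose interval was above 1. Sec61b ran from 0.776 in myofibroblasts to 0.947 in Asc1 fibroblasts, and Ssr1 from 0.955 in Asc1 fibroblasts to 1.19 in myofibroblasts. Atf4 and Ppp1r15a, both in the integrated stress response, thus lay on opposite sides of 1 in 4 of the 5 classes.

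**Figure D2:**
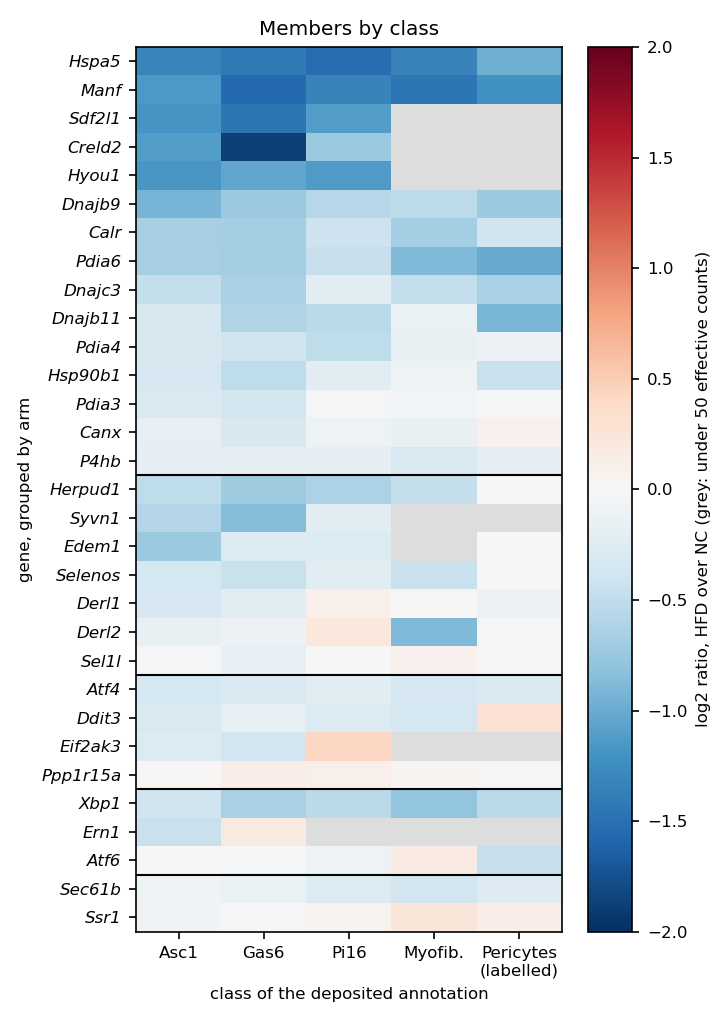
log2 ratio of HFD over NC for the 31 genes (rows, grouped by role with black lines between groups) in the 5 classes (columns). Blue is lower in HFD, red higher, and grey marks fewer than 50 effective counts. The rows of Hspa5 and Manf are blue in every class, with Hspa5 lightest in the class labelled pericytes. In that class the 6 measured degradation rows are near white and Syvn1 is grey. The row of Ppp1r15a is near white throughout.

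A finer column of the annotation sets an SNAT2 subset apart within the Asc1 class, 245 HFD and 359 NC cells of low depth (medians of 4009 and 3037 counts). In NC, Hspa5 was at 1958 CPM (1802 to 2124) in that subset and at 1207 CPM (1180 to 1235) in the other Asc1 cells. In HFD the levels were 575 CPM (480.3 to 684) and 494 CPM (475 to 513), so the intervals were apart in NC and overlapped in HFD. The HFD over NC ratio was 0.294 (0.241 to 0.356) in the subset and 0.409 (0.391 to 0.428) in the others. Of 20 members measured in the subset 8 were lower by size, where 8.35% of all genes were, and 2 were higher, P4hb at 1.501 (0.984 to 2.30) and Atf6 with an interval of 0.927 to 2.44, where 7.52% were. Both of those intervals include 1.

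The lower levels of Hspa5 and Manf lay across the cells rather than in a few. Hspa5 had a count in 64.1% of HFD fibroblasts (62.9 to 65.4%) and in 83.7% of NC fibroblasts (82.9 to 84.5%), although HFD cells were the deeper ones. With every cell thinned to 2000 counts the shares were 44.3% and 71.2%, leaving out 3 HFD and 25 NC cells. Among cells with a count, the mean level of Hspa5 was 784 CPM in HFD and 1588 CPM in NC. That mean was taken without thinning, and 1 count makes fewer CPM in a deeper cell. The part of depth in it was not tested. For Manf, the thinned shares were 12.5% and 26.3%. Those of Ppp1r15a were 49.6% and 50.1%. No class of these tables lacks ER chaperones, so none could give the share that free RNA alone produces. The 10 cells with the most Hspa5 counts held 1.82% of its counts in HFD and 1.48% in NC. Sdf2l1, Creld2 and Hyou1 were seen in fewer cells, 3.75%, 3.35% and 4.37% of HFD and 8.29%, 6.84% and 7.93% of NC fibroblasts. Their top 10 cells held 13.5%, 14.4% and 15.2% of their HFD counts, so a spread across cells is not shown for them.

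The sum of the 15 folding genes had a median of 2078 CPM per HFD fibroblast and 3480 CPM per NC fibroblast. Without Hspa5 the medians were 1590 and 2328 CPM. Of HFD fibroblasts 18.2% (17.2 to 19.3%) lay above the NC median and 0.601% (0.414 to 0.843%) above the NC 90th percentile of 6952 CPM. Among the 5 classes this share was highest in myofibroblasts, at 31.2% of HFD cells above the NC median of their class, and lowest in Gas6 fibroblasts, at 9.95%. The middle ranges of cells (25th to 75th percentile) still overlapped between the diets there, with a 75th percentile of 3239 CPM in HFD and a 25th percentile of 2949 CPM in NC.

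**Figure D3:**
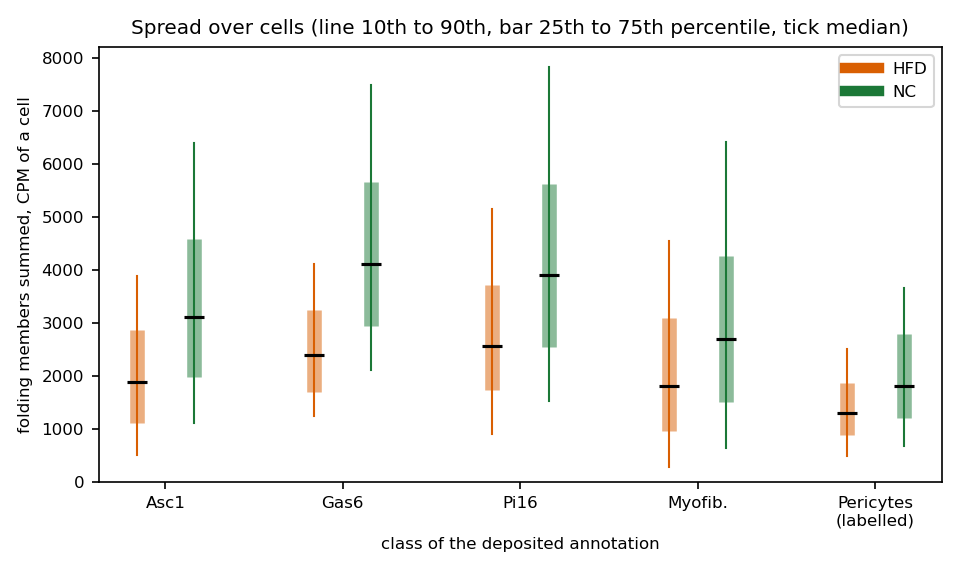
Sum of the 15 folding genes in each cell, in CPM, by class and diet (HFD orange, NC green). Lines run from the 10th to the 90th percentile of cells, bars from the 25th to the 75th, and black ticks are medians. Every HFD median lies below the NC median of its class, from 2389 against 4116 CPM in Gas6 fibroblasts to 1306 against 1812 CPM in pericytes.

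Depth differed between the libraries, so ratios were also taken among fibroblasts of like depth. Hspa5 had ratios of 0.455, 0.357, 0.347 and 0.362 in cells of 2000 to 5000, 5000 to 8000, 8000 to 12000 and 12000 to 20000 counts. Manf ran from 0.328 to 0.422 over these ranges, Calr from 0.570 to 0.697, and Hsp90b1 from 0.715 to 0.807. Pdia3 was at 0.963 (0.782 to 1.18) in the shallowest range, where its interval includes 1, and at 0.713 (0.658 to 0.773) in cells of 8000 to 12000 counts. Ddit3 was at 0.576 (0.382 to 0.843) in the shallowest range and at 1.04 (0.895 to 1.20) in the deepest, so its difference was not the same at all depths. The median log2 ratio of the members was between −0.38 and −0.50 in the 4 ranges.

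Related genes outside the 35 were counted from lists chosen by role. Over all genes 4.75% were lower by size and 5.45% higher. Of 30 other ER folding enzymes 2 were lower by size, near that share, and 0 higher, with a median log2 ratio of −0.12. They were Serpinh1 (HSP47), the collagen chaperone, at 310.2 against 501 CPM (0.619, 0.595 to 0.644), and Pdia5 at 1.89 against 3.51 CPM (0.537, 0.315 to 0.889). Of 22 other degradation genes 1 was lower, again near it (Ube2g2, a ubiquitin-conjugating enzyme, 0.649), with a median of −0.15. Of 38 other Atf4 and integrated stress genes 4 were lower, with a median of −0.03. Among them were Sesn2 at 0.487 (0.353 to 0.665) and Slc7a1, a cationic amino acid transporter, at 0.585 (0.460 to 0.739), whereas Vldlr was at 1.38 (1.27 to 1.49). Ddit4, at 0.313 (0.135 to 0.649), belongs to the glucocorticoid list as well.

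Of 31 translocon, signal peptidase and N-glycosylation genes on the route into the ER 0 were lower by size, where 4.75% of all genes were. Their median log2 ratio was −0.09, with 15 intervals below 1 and 7 above. By interval bound Ostc lay farthest from 1, at 0.751 (0.698 to 0.808), whereas Sec62 (1.30), Ost4 (1.27) and Sec61g (1.26) had intervals above 1. Of 30 ER to Golgi transport genes 1 was lower by size, near the share over all genes. Their median was −0.21, with 19 intervals below 1 and 0 above. For neither list were the counts of intervals set beside those over all genes. The COPII coat genes Sec24d (0.661), Sec23b (0.688) and Sec24a (0.689) and Preb (0.690), which activates the coat GTPase, were its members farthest from 1. Of 15 genes of ER shape and calcium 1 was lower by size, also near that share, Atp2a2, the calcium pump SERCA2, at 69.6 against 128 CPM (0.542, 0.4998 to 0.588), while Lnpk, which shapes ER junctions, was at 1.41 (1.29 to 1.54).

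Other stress lists moved beside the ER genes. Of 22 cytosolic heat shock genes 7 were lower by size, where 4.75% of all genes were, with a median log2 ratio of −0.50, including Hsph1 at 0.443 and Dnaja1 at 0.618. In the class labelled pericytes 19 of the 22 were lower, where 6.77% of all genes were. Their median there was −1.13, against −0.55 for the 12 folding genes measured. In the pooled fibroblasts 10 of 15 glucocorticoid-induced genes were lower, again beside 4.75% of all genes, with a median of −1.19. Of 23 immediate early genes, which respond to tissue handling, 3 were lower beside the same share, with a median of 0.02. The part of handling, of glucocorticoid levels and of the library itself in the lower ER chaperones was not tested, and with 1 library each they cannot be told apart from the diet.

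**Figure D4:**
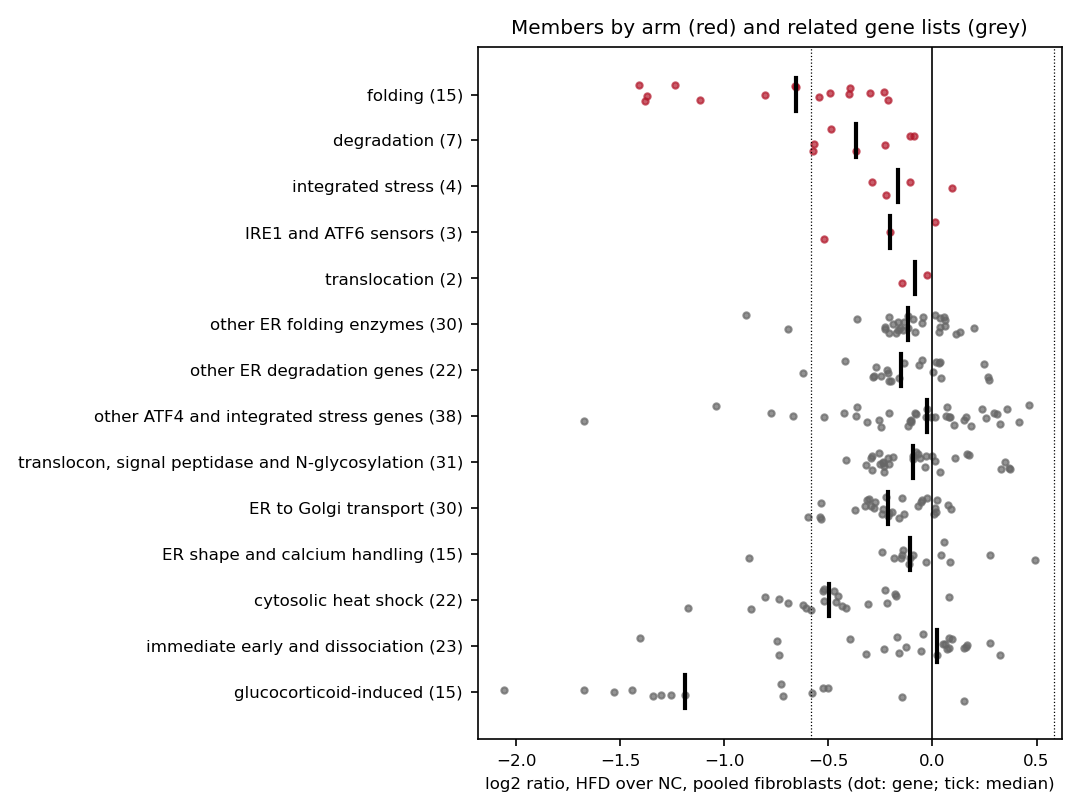
log2 ratio of HFD over NC in the pooled fibroblasts for the genes by role (red) and for related lists (grey), with the number measured in brackets. Dots are genes, black ticks medians, and dotted lines 1.5-fold. The folding median of −0.66 stands beside −0.12 for other ER folding enzymes, −0.50 for cytosolic heat shock genes and −1.19 for glucocorticoid-induced genes.

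Plasma cells hold many ER chaperones, so their markers are given. Jchain, Mzb1, Igkc and Derl3 summed to 1.09 CPM in HFD and 246 CPM in NC fibroblasts, and 14879 of 15150 Igkc counts in kept NC cells were in 1 cell. Immune markers (Ptprc, Lyz2, Cd3e, Cd79a) summed to 10.0 CPM in HFD and 6.33 CPM in NC with 2 of 4 at 0, endothelial markers to 0.467 and 1.04 CPM with 1 of 4 at 0, and epithelial markers to 0.934 and 1.48 CPM with 2 of 3 at 0. Pecam1, Epcam, Sftpc and Ptprc were at 0 in the kept cells of both libraries. Whether cells or genes had been selected by such markers before deposit was not tested, so these zeros do not measure free RNA. Ptprc thus left out no cell in the setting that follows. Without the 119 HFD and 192 NC fibroblasts that held a count of Lyz2, Ptprc, Cd79a, Igkc, Jchain or Mzb1, a setting chosen after seeing the data, the same 8 genes were lower by size and Herpud1 joined them.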

How the data were processed

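The tables of both libraries hold 1 cell per row, with log2 values of CPM plus 1 for each gene as deposited by the authors, a unit found from the values. Per the file headers, each cell's row also carries the deposited total, an estimated count (fractional in 7.24% of cells for HFD and 5.59% for NC), and its mitochondrial share in percent. STAR and the mm39 build are named in the submitters' processing notes. The version, the counting of molecules and the treatment of near-identical gene copies are not given in the sources used here.

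Each log2 value was turned back into CPM and then, with the total of its cell, into a count. Within 0.01, 98.8% of the values in HFD and 98.96% in NC came out whole, and all were rounded. Sums over the cells of a class and library are reported as CPM. A gene name table gave symbols for 20144 of 21014 identifiers. The counts varied more than single molecules would. For genes detected in 0.1 to 1% of cells, summed squared counts over summed counts had a median of 4.85 in HFD and 3.98 in NC, and counts divided by these factors are the effective counts. Ratios have exact conditional Poisson intervals and shares exact Clopper-Pearson intervals. Counting error is all they cover, and depth limits the rare genes most. The calculation was tested on simulated data. No doublet caller was run here. Promoter windows were searched on both strands, and a gene counts if any of its windows matches.

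The members, the related lists and the settings were chosen with earlier results of these data known. All 35 members are named. Described by class are Hspa5 and the 3 measured members of each role whose interval bound lies farthest from 1, and of the related lists up to 4 genes by the same rule; other members whose ratio in a class is given were chosen after their values were seen. Python 3.11.15, scipy 1.17.1, R 4.3.3 and edgeR 4.0.16 (TMM factors only) were used. Alternatives covered cell filters, the count minimum, scaling, averaging over cells, thinning, depth, classes and top cells.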

Additional observations from a re-analysis of the deposited data

How the results depend on the processing

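All 8 folding genes called lower by size in the pooled fibroblasts were also called in each of 14 alternative settings, and 0 members were called higher in any. Of all measured genes, 3.8% (each cell thinned) to 5.6% (the 4 fibroblast classes weighted equally) were lower by size in these settings. The number of members lower ran from 8 to 13. It was 13 with the class labelled pericytes added, where Dnajb11, Dnajc3, Herpud1, Syvn1 and Xbp1 joined the 8. The median log2 ratio of the integrated stress genes was then −0.27 in place of −0.17. In the class labelled pericytes alone it was −0.02, over 3 genes. That class makes up 596 of 6089 HFD cells and 250 of 8140 NC cells, so the mix of classes in this pool differs between diets. The part of that mix in the pooled ratios was not tested. Herpud1 and Syvn1, just short of 1.5-fold, also passed it in other settings, TMM and median-of-ratios scaling among them. Median log2 ratios ran from −0.43 to −0.36 for the members, −0.68 to −0.59 for folding, −0.43 to −0.31 for degradation and −0.27 to −0.09 for integrated stress genes. Per-gene values were computed for the named members only. Of these, the sign differed between settings for Ppp1r15a (−0.02 to 0.11), Atf6 (−0.13 to 0.06) and Ssr1 (−0.09 to 0.03), none of them called. Without the count minimum 35 members were measured, and Derl3, Trib3 and Asns were called on 31 to 89 counts per library. No paired analysis was possible because each diet has 1 library, and leaving out a replicate was not possible for the same reason. What diet, animal, handling and library preparation each contribute cannot be told apart.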

Other observations

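Few genes outside the 35 whose promoter window holds the ER stress element (CCAAT and CCACG separated by 9 bases) were measured. Of 28 such genes 13 were in the tables and 8 were measured in the pooled fibroblasts. By size 0 were lower and 0 higher, where 4.75% and 5.45% of all genes were. With 8 genes at such shares, no result about the element follows from these counts. The 8 genes had a median log2 ratio of 0.11, against 0.02 over all genes. They included Hnrnpa3, an RNA-binding protein, at 163 against 193 CPM (0.846, 0.800 to 0.896), Ero1b, an ER oxidase, at 4.41 against 4.32 CPM (1.02, 0.701 to 1.48), and Spats2l at 31.8 against 24.0 CPM (1.32, 1.15 to 1.53). Among the 35 genes, 4 of the 6 called lower that have a window held the element (Hspa5, Creld2, Calr and Pdia6), and 4 of the 21 measured within 1.5-fold did (Hsp90b1, Canx, Dnajc3 and Syvn1). All 6 are folding genes, whereas the 21 span every role. Of the 13 folding genes with a window 7 held the element, Hsp90b1, Canx and Dnajc3 among them. The shares thus differ by role as well, and a link of the element to the ratios was not tested. Sdf2l1 and Dnajb9 were lower by size without an exact match in the window searched.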
